A study of Mus musculus with 6 samples.

Results

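The genes described here encode the nuclear pore complex and the nuclear lamina, 32 of the 18853 genes in the deposited table. They were chosen by name alone: every gene called Nup followed by a number, together with Lmna, Lmnb1, Lmnb2, Lbr, Tpr, Rae1, Ndc1, Pom121, Aaas, Seh1l and Sec13. RNA was sequenced from cultured mouse BMSCs (bone marrow stromal cells, which adhere to plastic and give rise to skeletal cell types and fat), kept in αMEM and 10% fetal bovine serum. There were 3 wild-type samples (WT, numbered 10, 11 and 12) and 3 samples with the gene for HRP2 knocked out (HRP2-KO, numbered 6, 7 and 44). HRP2, whose gene is listed as Hdgfl2, is a chromatin protein with a PWWP domain. No treatment or other allele is named for either group, and the sources used here give no strain, age or knocked-out part of the gene. Nothing in the labels tells whether samples of a group came from different animals or cultures, so p-values below measure only the spread between these samples, which may be technical.

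The nuclear pore complex is a ring-shaped channel through the nuclear envelope. Stacked outer rings of the Y complex and an inner ring form its scaffold, membrane-spanning nucleoporins anchor it, and nucleoporins rich in phenylalanine-glycine repeats fill the channel and carry transport receptors across. Filaments extend into the cytoplasm and a basket into the nucleus. The lamina is the mesh of A-type and B-type lamins under the inner nuclear membrane. In mesenchymal cells lamin A is abundant and is known to vary with tissue stiffness, while lamin B1 is known to fall in senescent cells. Dividing cells take the envelope apart at mitosis and build new pores as the nucleus grows.

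Estimated counts summed to 20184500 to 20680800 a library. Levels are given as CPM, counts scaled to a common library size by TMM, and replicate order throughout is 10, 11, 12 for WT and 6, 7, 44 for HRP2-KO. Hdgfl2 itself (chromosome 17) stood at 51.4, 56.2 and 58.2 CPM in WT against 6.59, 5.56 and 11.8 CPM in HRP2-KO, lower in each knockout library (edgeR log2 fold change -2.79, SE 0.32, adjusted p = 0.0711). All 14 stromal marker genes had counts in every library, summing to 6379 to 11748 CPM in WT and 23218 to 29813 CPM in HRP2-KO. The sum is mostly the collagen genes Col1a1 and Col1a2, and 6 of the 14 had negative log2 fold changes (Pdgfra, Thy1, Eng, Cxcl12, Prrx1 and Vcam1). The mean of log2(CPM + 0.5) over the 14 was 7.33 to 7.92 in WT, 7.12 and 7.21 in knockout replicates 6 and 44, and 8.18 in replicate 7. All 17 macrophage markers also had counts in every library. They summed to 11295 to 28994 CPM in WT and, for knockout replicates 6, 7 and 44, to 1439, 16096 and 2895 CPM. Replicate 7 also had 1358 CPM over 12 interferon response genes, where the other libraries had 119 to 306 CPM. The 7 endothelial markers summed to at most 19.9 CPM, with Tie1 at 0 in each knockout library, and the 7 erythroid and lymphoid ones to at most 0.888 CPM. Over genes (not independent of each other), HRP2-KO replicate 7 correlated more closely with each WT library (0.912 to 0.934 on log2 CPM) than with either other knockout library (0.884 and 0.861). Genes were sorted into 5 equal classes of transcript length. In HRP2-KO replicate 44 the longest class deviated from the average library by a median of -0.50, and the shortest by 0.53, on the log2 scale. In the other 5 libraries the corresponding medians lay within -0.161 to 0.166. Where a call or a direction rests on replicate 7 or 44, the value without it is therefore given.

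Most nucleoporin and lamina transcripts were more abundant in HRP2-KO, though the edgeR quasi-likelihood test called none of them. Of the 32 genes 30 had enough counts to be tested, and 25 of the 30 had a positive log2 fold change (HRP2-KO over WT), as did 51% of all 13696 tested genes. Their median log2 fold change was 0.63, against 0.02 over all tested genes. On normalised CPM, each knockout library lay above each WT library in 18 of the 30, where 17% of all tested genes did so. In 1 each knockout library lay below, where 14% did so. Overlap of groups is judged on this scale below. Groups overlapped on the deposited TPM, which corrects for transcript length, in Nup37, Nup43, Sec13, Nup155, Rae1, Nup88, Ndc1 and Lmna. The others of the 18 stayed apart. The share of all genes without overlap was not taken on TPM. The edgeR quasi-likelihood test called 0 of the 30 at an adjusted p of 0.05, against 1 of all tested genes (0.0073%), and the smallest adjusted p among them was 0.109. At an unadjusted p below 0.05 there were 17 higher, against a background of 12.7%, and 1 lower, against 9.1%. DESeq2 called 9 higher and 0 lower, where it called 5.45% of all genes higher and 4.62% lower. Limma voom called 0 of the 30, against 0.0511% of all genes higher and 0.219% lower. With HRP2-KO replicate 7 left out, edgeR called 17 of the 30 higher and 0 lower, where 12.1% of all genes passed higher and 12% lower, and those 17 include all 9 of the DESeq2 calls. Without HRP2-KO replicate 44 it called 0, as it did over all genes. Without replicate 6 it called 0 of the 30, and 1 of all genes.

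**Figure D1:**
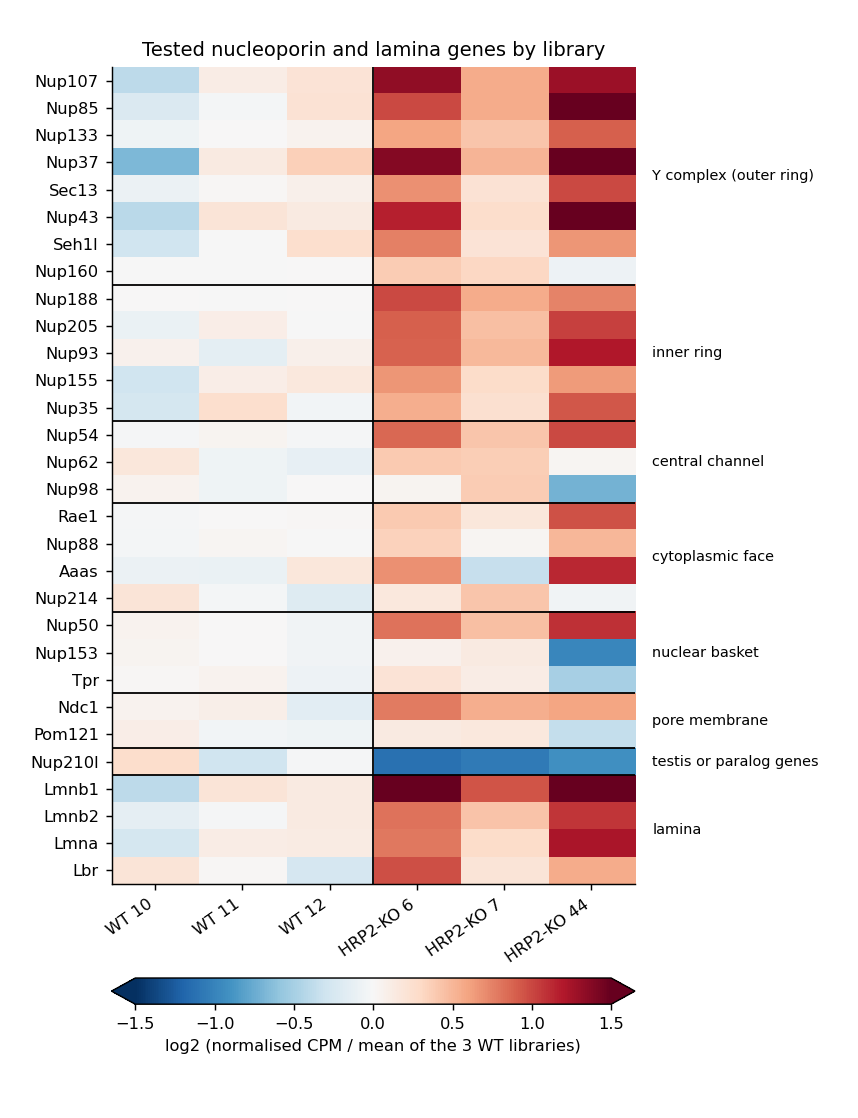
Level of each of the 30 tested genes (rows, grouped by place in the pore or lamina) in each library (columns) as log2 of normalised CPM over the mean of the 3 WT libraries; colours end at 1.5 in each direction. The ring scaffold and lamina rows are red in the HRP2-KO columns, mostly palest in replicate 7 (Nup160 is pale blue in replicate 44), while Nup98, Nup153, Tpr and Pom121 are bluest in replicate 44 and Nup210l is blue in all 3.

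The amount of the difference varied between the knockout libraries. HRP2-KO replicate 6 had 29 of the 30 genes above the WT mean, replicate 7 had 28 and replicate 44 had 23, with medians of 0.73, 0.34 and 0.92 on the log2 scale. Replicate 7, the mildest, was also the knockout library with the most macrophage RNA. Over the 32 genes the mean of log2(CPM + 0.5) was 4.56 to 4.70 in WT against 5.26, 4.91 and 5.30 in HRP2-KO. The same mean over 26 cell cycle genes was 3.21 to 4.01 in WT and 5.82, 5.01 and 6.16 in those replicates, so both kinds of gene were lowest in replicate 7 among the knockout libraries. All 26 cell cycle genes had a positive log2 fold change, with a median of 2.32. In such bulk RNA, fewer cells of a type and less RNA per cell cannot be told apart. The part of dividing cells and of macrophages in the differences below was not tested.

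All 8 genes grouped here as the Y complex, the scaffold of the outer rings, were higher in HRP2-KO. Their median log2 fold change was 0.88, and in 6 the groups did not overlap. The Y subunit NUP96 is encoded by Nup98, which is counted with the channel below and was not higher (log2 fold change -0.03). Nup107, one of its core subunits (chromosome 10), stood at 13.8, 19.6 and 20.8 CPM in WT against 45.3, 26.5 and 43.9 CPM in HRP2-KO. Every knockout library lay above every WT library, and the means of 18.1 ± 3.74 and 38.6 ± 10.5 CPM (SD, n = 3 each) gave a 2.13-fold difference (log2 fold change 1.09, SE 0.28, adjusted p = 0.125). Nup85, which joins the short arm of the Y, stood at 19.2, 21.8 and 25.9 CPM in WT and at 44.3, 32.9 and 70.2 CPM in HRP2-KO, 2.20-fold higher without overlap (log2 fold change 1.14, SE 0.31, adjusted p = 0.136). Replicate 44 was the highest library for Nup85, and also for Nup37, Nup43, Sec13 and Nup133. Both genes passed in DESeq2 (adjusted p = 0.0234 for Nup107 and 0.0342 for Nup85) and in edgeR without HRP2-KO replicate 7 (adjusted p = 0.0194 and 0.0229).

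The peripheral Y subunits Nup37 and Nup43, small beta-propeller proteins, had the widest fold changes of the complex. Nup37 stood at 3.95, 6.93 and 8.05 CPM in WT against 16.4, 8.99 and 22.1 CPM in HRP2-KO (log2 fold change 1.33, SE 0.43, adjusted p = 0.171). Nup43 stood at 5.43, 8.26 and 7.91 CPM against 16.1, 8.67 and 29.3 CPM (log2 fold change 1.32, SE 0.47, adjusted p = 0.192). In both, replicate 7 stood just above the highest WT library. Both passed in edgeR without that replicate (adjusted p = 0.0291 for Nup37 and 0.0266 for Nup43), and neither passed without replicate 44, where the log2 fold change of Nup43 was 0.78. Their transcripts are among the shortest tested, and with the trend on transcript length removed from each library the log2 fold changes were 1.07 and 1.04. Nup107 (1.11) then had the widest of the complex, and Nup85 was at 1.05. Nup133, a long-transcript member that helps anchor the Y to the membrane, had tight WT values of 20.0, 20.9 and 21.7 CPM against 31.5, 27.8 and 38.8 CPM (log2 fold change 0.65, SE 0.19, adjusted p = 0.145, and 0.0347 without replicate 7).

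Sec13 and Seh1l serve the Y complex and other assemblies too, Sec13 as a coat protein of vesicles leaving the endoplasmic reticulum and both as parts of the nutrient-sensing GATOR2 complex. Sec13 stood at 88.4 to 99.2 CPM in WT and at 110 to 188 CPM in HRP2-KO, without overlap (adjusted p = 0.188 in edgeR, and 0.0267 without replicate 7). Seh1l stood at 27.1, 33.4 and 39.6 CPM in WT and at 56.5, 38.6 and 53.0 CPM in HRP2-KO, where replicate 7 lay within the WT range. Nup160 was the Y gene with the least difference, at 23.8, 23.8 and 24.1 CPM in WT and 31.1, 29.6 and 22.7 CPM in HRP2-KO (log2 fold change 0.22, SE 0.18, adjusted p = 0.487). Its direction depended on the scale: on log2(TPM + 1) the difference was -0.04.

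The inner ring, which lines the pore wall and holds the channel nucleoporins, was likewise higher in 5 of 5 members, with groups apart in 4 and a median log2 fold change of 0.78. Nup188, a large solenoid scaffold, was the gene with the smallest p of the 30. It stood at 37.7, 37.4 and 37.6 CPM in WT and at 74.8, 55.5 and 62.8 CPM in HRP2-KO. The knockout libraries all lay above a WT group that hardly varied (37.6 ± 0.124 against 64.4 ± 9.76 CPM, SD, n = 3 each), a 1.71-fold difference (log2 fold change 0.78, SE 0.17, adjusted p = 0.109). Nup205, its structural relative, stood at 40.5, 46.6 and 43.3 CPM against 81.1, 59.4 and 88.5 CPM, 1.76-fold higher (log2 fold change 0.81, SE 0.20, adjusted p = 0.116). Nup93, which ties the inner ring together, stood at 28.3 to 33.0 CPM against 43.7 to 71.7 CPM. DESeq2 called these 3 (adjusted p = 0.00606, 0.0255 and 0.0302), as did edgeR without HRP2-KO replicate 7 (adjusted p = 0.0209, 0.0190 and 0.0203). Nup155 was apart at 20.7 to 28.3 against 30.9 to 40.4 CPM. Nup35, which binds membrane, overlapped, with 10.5, 15.0 and 12.2 CPM in WT and 18.3, 14.9 and 23.9 CPM in HRP2-KO (log2 fold change 0.60, SE 0.26, adjusted p = 0.244).

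**Figure D2:**
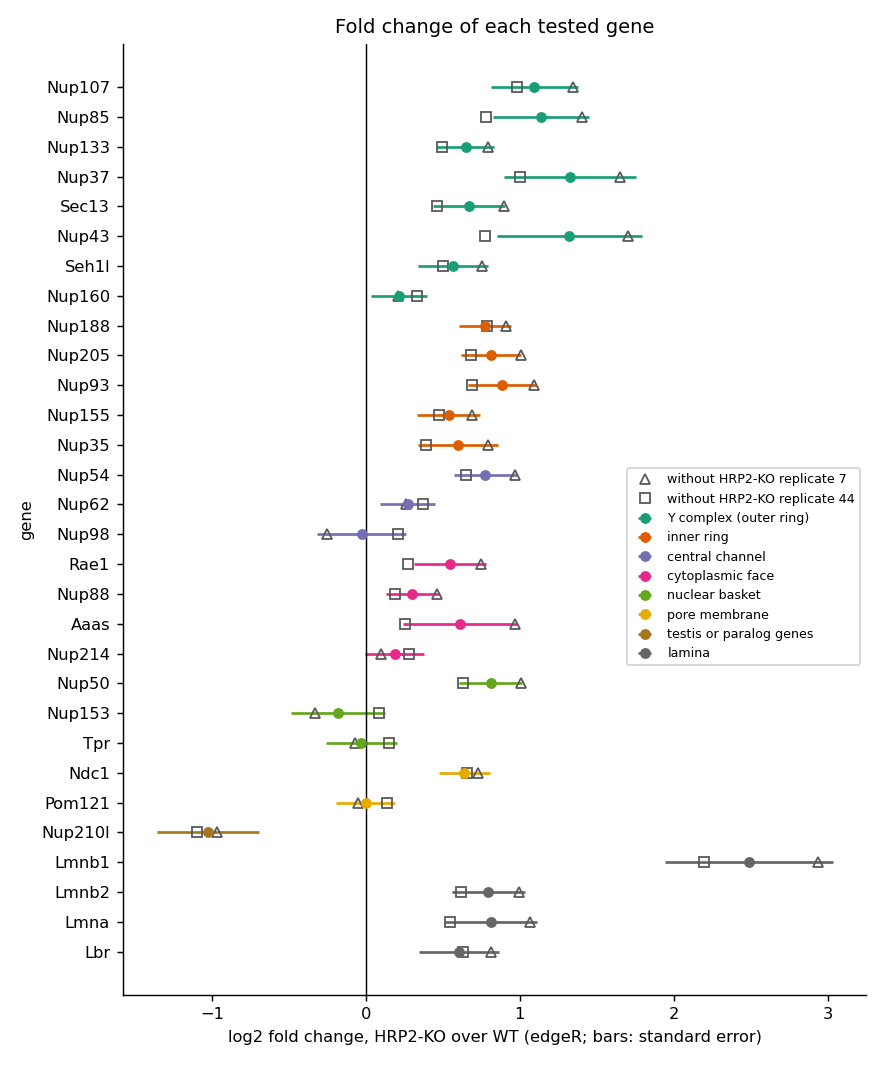
Log2 fold change of HRP2-KO over WT for each of the 30 tested genes from edgeR (filled circles coloured by place in the pore or lamina; bars are the standard error), with the value without HRP2-KO replicate 7 (triangles) or 44 (squares). The ring scaffold genes lie between 0.22 and 1.33, Lmnb1 stands out at 2.49, and Nup98, Nup153, Tpr and Pom121 lie near 0 and are positive without replicate 44.

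Promoters are shown for 3 of the genes with groups apart, 2 of the Y complex and 1 of the basket, as examples of the motif matches found. RefSeq sequence of build GRCm38.p6, from 250 bases before to 50 after 1 annotated start a gene, was at hand for 26 of the 32 genes. Capitals mark matches on either strand to the CHR element of late cell cycle genes (TTTGAA or TTTAAA), to the NRF1 site (GCGCANGCG) or to the E2F site (TTTCCCGC, TTTGGCGC, TTTCGCGC or TTTGCCGC). Nup107 is at chr10:117792656-117792955 on the minus strand, Nup37 at chr10:88146742-88147041 on the plus strand and Nup50 at chr15:84923178-84923477 on the plus strand.
Nup107: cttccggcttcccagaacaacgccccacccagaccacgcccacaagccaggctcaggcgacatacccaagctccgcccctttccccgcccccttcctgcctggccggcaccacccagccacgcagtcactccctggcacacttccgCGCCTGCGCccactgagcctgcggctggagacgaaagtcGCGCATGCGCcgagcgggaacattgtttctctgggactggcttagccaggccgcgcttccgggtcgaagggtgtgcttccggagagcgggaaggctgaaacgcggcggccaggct
Nup37: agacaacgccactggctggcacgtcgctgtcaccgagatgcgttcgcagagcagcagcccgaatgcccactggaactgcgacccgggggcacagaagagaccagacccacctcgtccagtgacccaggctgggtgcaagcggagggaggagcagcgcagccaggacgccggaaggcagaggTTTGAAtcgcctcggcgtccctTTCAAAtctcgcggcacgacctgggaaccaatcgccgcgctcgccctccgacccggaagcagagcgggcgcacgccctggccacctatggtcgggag
Nup50: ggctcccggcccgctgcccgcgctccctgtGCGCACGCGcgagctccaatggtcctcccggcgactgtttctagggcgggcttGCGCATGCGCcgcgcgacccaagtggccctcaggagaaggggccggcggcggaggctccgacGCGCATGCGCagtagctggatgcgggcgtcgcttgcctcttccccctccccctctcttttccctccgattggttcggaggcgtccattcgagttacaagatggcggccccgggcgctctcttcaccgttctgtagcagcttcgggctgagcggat
The Nup107 and Nup50 windows hold NRF1 matches, some of which overlap a match on the opposite strand, and the Nup37 window holds 2 CHR matches that begin 69 and 47 bases before the start. Of the 24 tested genes with a promoter here, 8 held a CHR match (33.3%), against 19.5% of the promoters of all tested genes. An NRF1 match was in 4 (16.7%, against 13.2%) and a CCAAT box (CCAAT) in 10 (41.7%, against 39.1%). No E2F match was in these 24 windows, against 3.98% of all tested promoters. Among the 15 whose levels were higher without overlap, 26.7% held a CHR match and 20.0% an NRF1 match. Among the 9 others the shares were 44.4% and 11.1%, so CHR matches were less frequent in the higher genes. These counts describe letters in the windows and were not tested.

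In the channel and at the cytoplasmic face the picture was mixed. Nup54, a repeat protein of the central channel, stood at 16.7, 17.4 and 16.7 CPM in WT and at 30.7, 22.7 and 33.7 CPM in HRP2-KO, 1.71-fold higher without overlap (log2 fold change 0.78, SE 0.20, adjusted p = 0.128). It passed in DESeq2 (adjusted p = 0.0359) and in edgeR without replicate 7 (adjusted p = 0.0215). Its partner Nup62 overlapped, at 67.7, 57.9 and 55.6 CPM against 79.4, 78.0 and 61.4 CPM (log2 fold change 0.27, SE 0.18, adjusted p = 0.387). The third protein of that trimer, Nup58, is listed as Nupl1, outside the naming rule, and stood at 41.3 to 46.6 CPM in WT and 36.9 to 54.0 CPM in HRP2-KO. Nup98, whose transcript encodes both the mobile repeat protein NUP98 and the Y subunit NUP96, stood at 96.6, 89.1 and 93.6 CPM in WT. In HRP2-KO it was at 95.9, 121 and 56.8 CPM in replicates 6, 7 and 44, around the WT level, above it and below it (log2 fold change -0.03, SE 0.29, adjusted p = 0.960). Without replicate 44 its log2 fold change was 0.21.

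Rae1, an mRNA export factor that binds NUP98, had WT values of 30.2, 30.7 and 31.0 CPM and HRP2-KO values of 40.2, 34.4 and 59.5 CPM (log2 fold change 0.55, SE 0.24, adjusted p = 0.241), and without replicate 44 the log2 fold change was 0.27. Nup88, which docks on the cytoplasmic face, stood at 57.0, 59.1 and 57.8 CPM against 73.4, 59.4 and 81.8 CPM (log2 fold change 0.30, SE 0.17, adjusted p = 0.330). In both the groups did not overlap, though replicate 7 of Nup88 lay just above the highest WT library. Nup214, the repeat protein partnered with NUP88, overlapped widely at 73.0, 62.6 and 55.7 CPM against 71.2, 84.9 and 61.5 CPM (log2 fold change 0.19, SE 0.19, adjusted p = 0.573). Aaas, the ALADIN gene mutated in triple A syndrome in humans, was divided in HRP2-KO, with 54.6 CPM in replicate 7, below the WT range of 65.2 to 78.1 CPM, and 112 and 152 CPM in replicates 6 and 44. It passed without replicate 7 (log2 fold change 0.97, adjusted p = 0.0291) and not with it (0.61, adjusted p = 0.354). Without replicate 44 its log2 fold change was 0.26 (adjusted p = 0.706).

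The 3 nuclear basket genes differed among themselves. Nup50, a mobile basket protein that works with importin alpha, stood at 45.9, 44.6 and 42.6 CPM in WT and at 77.9, 60.4 and 95.0 CPM in HRP2-KO, 1.75-fold higher without overlap (log2 fold change 0.81, SE 0.20, adjusted p = 0.120). It passed in DESeq2 (adjusted p = 0.0323) and in edgeR without replicate 7 (adjusted p = 0.0203). Nup153, which tethers the basket to the ring, stood at 76.7, 74.8 and 71.7 CPM in WT and at 77.7, 81.6 and 37.8 CPM in HRP2-KO (log2 fold change -0.18, SE 0.30, adjusted p = 0.736). Tpr, the coiled-coil filament of the basket, stood at 218, 223 and 204 CPM against 247, 233 and 153 CPM (log2 fold change -0.03, SE 0.23, adjusted p = 0.950). In Nup153 and Tpr, HRP2-KO replicates 6 and 7 lay above the WT libraries and replicate 44 below them all. Without replicate 44 their log2 fold changes were 0.09 and 0.15.

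Of the membrane nucleoporins, Ndc1, which anchors the pore and is needed to insert it, had groups that did not overlap, at 27.4, 28.2 and 23.8 CPM in WT and 45.2, 38.7 and 39.8 CPM in HRP2-KO. It was 1.56-fold higher with a similar CPM in each knockout library (log2 fold change 0.64, SE 0.16, adjusted p = 0.123). On the deposited TPM the knockout libraries were less alike, at 23.75, 19.13 and 14.21. Replicate 44 there lay below WT replicates 10 and 11 (14.26 and 16.73), and the difference on log2(TPM + 1) was 0.33. Ndc1 passed in DESeq2 (adjusted p = 0.0168) and in edgeR without HRP2-KO replicate 7 (adjusted p = 0.0346). Pom121 stood at 77.1, 70.4 and 69.1 CPM against 79.3, 80.5 and 56.5 CPM (log2 fold change -0.00, SE 0.19, adjusted p = 0.997). Nup210, the glycoprotein gp210 that many cell types lack, had 3, 5 and 5 counts in WT and 1, 1 and 0 in HRP2-KO, near or under the 3 counts that a gene with none allows, so no fold is given. Its germline paralog Nup210l was the 1 tested gene lower in every knockout library, at 2.81, 1.89 and 2.31 CPM in WT and 1.07, 1.12 and 1.24 CPM in HRP2-KO (log2 fold change -1.02, SE 0.33, adjusted p = 0.173). Nup62cl, a gene related to Nup62, had 3, 19 and 9 counts in WT and 3, 6 and 7 in HRP2-KO and was not tested.

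The genes that differed least encode long transcripts, and replicate 44 was low in long transcripts in general. Lengths here are those implied by the deposited counts and FPKM values. Of the 30 genes 11 fall in the longest of the 5 length classes, and over all 2739 genes of that class 9.6% had higher, non-overlapping levels in HRP2-KO. The 5 ring genes among the 11 (Nup133, Nup160, Nup188, Nup205 and Nup155) had such levels in 4 cases, and the other 6 (Nup98, Nup214, Nup153, Tpr, Pom121 and Nup210l) in 0. In HRP2-KO replicate 6, whose length classes deviated by at most 0.0228 from the average library, the ring genes lay 0.38 to 0.99 above the WT mean on the log2 scale. The other 6 ranged from -1.04 for Nup210l to 0.20 for Tpr there. In replicate 44 the ring genes ranged from -0.07 to 1.03 and the others from -0.98 to -0.04. In replicate 7 the ring genes ranged from 0.29 to 0.56 and the others from -0.98 to 0.42. There Nup98 and Nup214 lay within the range of the ring genes. Nup98 is counted with the other 6, although its transcript also encodes the Y subunit NUP96. It lay at 0.04 in replicate 6 and at -0.71 in replicate 44, outside the ranges of the ring genes in those libraries. In replicate 7 it lay at 0.38, inside their range. The grouping into ring genes and others was made after the values were seen and is not tested. With the length trend removed from each library, 28 of the 30 genes were positive, Nup153 (-0.05) and Nup210l (-0.81) being the exceptions, with a median of 0.69.

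**Figure D3:**
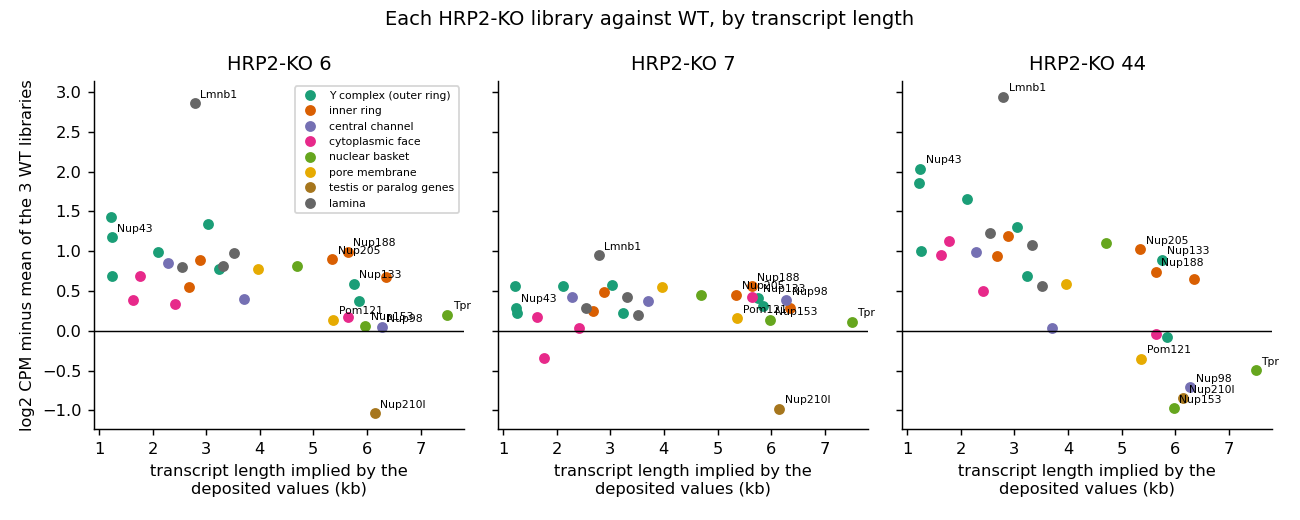
Log2 CPM of each tested gene in each HRP2-KO library minus the mean of the 3 WT libraries, against the transcript length in kb implied by the deposited values; points are coloured by place in the pore or lamina. In replicate 44 the long transcripts Nup153, Nup98, Tpr and Pom121 fall below 0 while Nup205, Nup188 and Nup133 of like length stay above it.

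All 4 lamina genes were higher in HRP2-KO, 3 of them without overlap on CPM. Lmnb1, which encodes lamin B1, had the largest fold change of the 30 genes. It stood at 4.49, 6.74 and 6.50 CPM in WT against 42.8, 11.3 and 45.3 CPM in HRP2-KO. Replicate 7 lay above all WT libraries but far below the other knockout libraries. WT averaged 5.91 ± 1.24 CPM and HRP2-KO 33.1 ± 18.9 CPM (SD, n = 3 each), a 5.60-fold difference (log2 fold change 2.49, SE 0.55, adjusted p = 0.109). DESeq2 called it (adjusted p = 0.000516), as did edgeR without HRP2-KO replicate 7 (log2 fold change 2.94, adjusted p = 0.0148).

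Lmnb2, which encodes the other B-type lamin, differed less, at 10.4, 11.3 and 12.6 CPM in WT against 20.0, 15.3 and 24.1 CPM in HRP2-KO (1.73-fold, log2 fold change 0.79, SE 0.24, adjusted p = 0.154). Lmna, the gene of lamins A and C, stood at 327, 426 and 426 CPM against 679, 475 and 918 CPM (1.76-fold, log2 fold change 0.81, SE 0.30, adjusted p = 0.197). Both were apart on CPM, with replicate 7 the nearest to WT. On the deposited TPM, replicate 7 of Lmna stood at 363, below WT replicates 11 and 12 (384 and 368). Lbr, the lamin B receptor of the inner membrane, which also has sterol reductase activity, stood at 18.5, 16.3 and 13.6 CPM against 31.6, 18.4 and 23.7 CPM, and replicate 7 overlapped with WT (log2 fold change 0.61, SE 0.26, adjusted p = 0.239). In edgeR without HRP2-KO replicate 7 all 4 passed, with adjusted p-values of 0.0301 for Lmnb2, 0.0358 for Lmna and 0.0474 for Lbr. None of the 4 passed without replicate 44, where adjusted p was 0.221 for Lmnb1, 0.277 for Lmnb2, 0.355 for Lmna and 0.354 for Lbr.

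**Figure D4:**
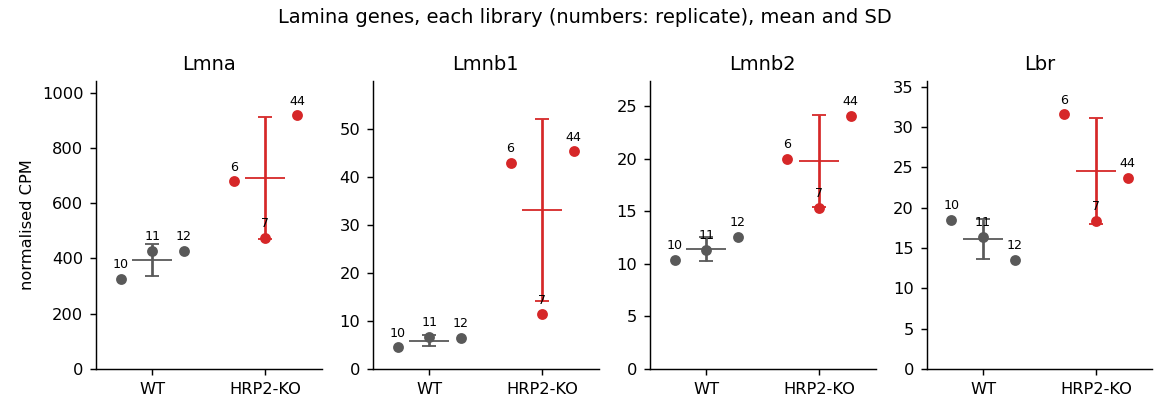
Normalised CPM of the lamina genes Lmna, Lmnb1, Lmnb2 and Lbr in each library (points, numbered by replicate), with the group mean (horizontal line) and SD (bar), n = 3 each; each axis starts at 0. HRP2-KO replicate 7 is the lowest knockout library in all 4 panels, and for Lmnb1 it stands at 11.3 CPM against 42.8 and 45.3 CPM in the others.

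The balance of lamin transcripts was compared on the deposited TPM scale, which corrects for length. Lmnb1 amounted to 0.0125, 0.0146 and 0.0140 of Lmna in WT against 0.0580, 0.0215 and 0.0420 in HRP2-KO, higher in every knockout library. Lmnb2 amounted to 0.0225 ± 0.00185 of Lmna in WT and 0.0221 ± 0.00265 in HRP2-KO (SD, n = 3 each), a difference smaller than the spread. The Lmnb1 to Lmnb2 ratio was 0.515 to 0.709 in WT and 2.55, 0.881 and 2.19 in HRP2-KO, so Lmnb1 was the lesser B-type transcript in each WT library and in replicate 7, and the greater in replicates 6 and 44. A two-sided exact permutation test of 3 against 3 cannot give a p below 0.10, so these ratios are given without one.

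Levels per length spanned a wide range within one structure. Lmna led in WT at 339 ± 63.9 TPM, followed by Sec13 at 166 ± 17.0 and Aaas at 86.6 ± 10.3 TPM (SD, n = 3 each). Tpr at 63.0 ± 5.08 and Nup88 at 52.8 ± 4.03 TPM came next, and their libraries do not overlap. Of the ring genes other than Sec13, the WT means ran from 8.04 TPM for Nup133 to 23.8 TPM for Nup93. Lmnb1, at 4.68 ± 1.20 TPM, ranked 29 of 32 in WT and 20 of 32 in HRP2-KO at 21.7 ± 12.5 TPM. Nup153 ranked 10 in WT and 22 in HRP2-KO, with 9.90 TPM in replicate 44 and 26.2 and 27.1 TPM in replicates 7 and 6. On log2(TPM + 1), with 12665 genes tested, the median difference over all genes was -0.21, and 24 of 29 tested genes here were positive with a median of 0.33.

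**Figure D5:**
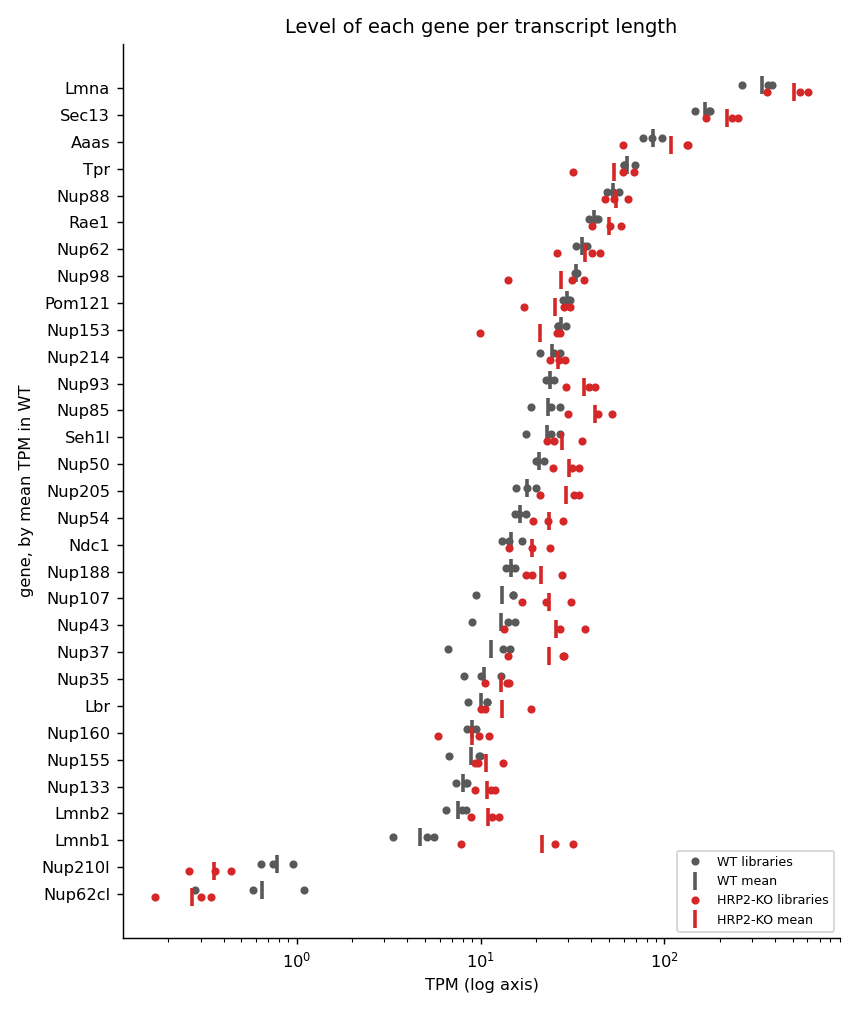
Deposited TPM (log axis) of the 31 genes with a mean of at least 0.5 TPM in WT, ordered by that mean; points are libraries and vertical ticks group means, grey for WT and red for HRP2-KO. Nup210, at 0.08 TPM or less in each library, is left out; Lmnb1 shows the widest gap between the group means among the genes above 1 TPM.

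Genes that work with the pore were read from lists of the transport pathway. These lists share genes: Nutf2 is in both the Ran cycle and the importin and exportin lists. Mcm3ap is in both the mRNA export list and that of other pore components. Over all tested genes 51% had a positive log2 fold change, and 12.7% were higher at an unadjusted p below 0.05 in edgeR. All 8 genes of the Ran cycle, which gives transport its direction, had positive log2 fold changes with a median of 1.13, and 5 had an unadjusted p below 0.05. Ran itself stood at 158, 167 and 196 CPM in WT and 374, 240 and 599 CPM in HRP2-KO (log2 fold change 1.22, SE 0.35, adjusted p = 0.147), and Rangrf, the Ran-binding protein MOG1, stood at 3.06, 4.62 and 5.04 against 10.7, 6.15 and 14.7 CPM (log2 fold change 1.31, SE 0.40, adjusted p = 0.159). Of 25 importins and exportins 15 were positive, 11 of them at an unadjusted p below 0.05, with a median of 0.31. Kpna2, an importin alpha that is abundant in dividing cells, stood at 55.6, 51.1 and 65.2 CPM against 182, 117 and 243 CPM (log2 fold change 1.66, SE 0.30, adjusted p = 0.0966). Cse1l, which returns importin alpha to the cytoplasm, averaged 55.0 ± 3.27 against 90.8 ± 11.9 CPM (WT first, SD, n = 3 each) without overlap, a 1.65-fold difference (log2 fold change 0.72, SE 0.17, adjusted p = 0.111).

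All 14 mRNA export genes were positive with a median of 0.50, where 51% of all tested genes were positive. At an unadjusted p below 0.05 there were 4 of them, against 12.7% of all tested genes. Alyref, an export adaptor, stood at 16.9, 19.1 and 19.9 CPM against 46.6, 28.8 and 73.6 CPM (log2 fold change 1.42, SE 0.35, adjusted p = 0.119), and Thoc3 of the THO complex stood at 19.1, 21.6 and 22.3 against 34.4, 31.1 and 43.0 CPM (log2 fold change 0.78, SE 0.19, adjusted p = 0.116). Of the 12 pore components outside the naming rule 9 were positive. At an unadjusted p below 0.05 there were 0 higher and 1 lower, Tmem33, an envelope and endoplasmic reticulum protein, at 102 to 112 CPM in WT and 65.8 to 87.8 CPM in HRP2-KO (log2 fold change -0.53, SE 0.18, adjusted p = 0.180). Nupl2, now named Nup42, of the cytoplasmic face, overlapped at 12.3 to 13.9 against 13.7 to 24.5 CPM. None of these lists had a gene past the adjusted threshold in edgeR. DESeq2 called 3 Ran cycle, 5 importin and exportin, 2 mRNA export and 0 other pore genes, all higher, against 5.45% of all genes. Without HRP2-KO replicate 7, edgeR called higher 7 of 8 Ran cycle, 9 of 25 importin and exportin, 7 of 14 mRNA export and 1 of 12 other pore genes, against 12.1% of all genes, and 1 other pore gene was called lower. Without replicate 44 it called 0 in each list.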

How the data were processed

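The submitters' processing notes name BWA, with no version, and genome build GRCm38.p6; no source used here names the counting program, the annotation or whether strand was read. The 7 genes whose span overlaps a tested gene (Nup43, Nup62, Nup98, Nup88, Nup214, Tpr and Pom121) are therefore uncertain. The authors deposited estimated counts per gene, not all whole and not normalized, together with TPM and FPKM values; the units are as the file headers name them. The 24 average and 6 normalized columns were not used.

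Estimated counts were rounded. Genes were filtered with edgeR 4.0.16's filterByExpr (minimum count 10, minimum total 15), TMM-normalised and tested on genotype alone with the two-sided quasi-likelihood F-test (R 4.3.3), with Benjamini-Hochberg adjustment over 13696 genes and a threshold of 0.05. The step was first tested on simulated data. The SE is the log2 fold change over the square root of F. A gene with no count allows up to 0.139 to 0.160 CPM (3 counts, counting error only). Alternatives used DESeq2 1.42.0 and limma 3.58.1, other factors and filters, TPM scales, a fold minimum, a transcript-length offset and each replicate left out. The labels name no batch, so a batch effect and genotype cannot be told apart. No pair of libraries agreed within counting noise (chi-square per degree of freedom at least 49.9). Promoters and positions come from RefSeq on GRCm38.p6; where several starts were listed the first was used. Figures were drawn with matplotlib 3.10.9.

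The genes and lists were chosen with earlier results of these data known. Values are given by rule for the lamina genes, the 2 genes with the smallest and the 1 with the largest p in each part of the pore, genes not tested or lower without overlap, and the 2 with the smallest p in each related list. Beyond that rule, every other gene is given by its values or range, as are Nupl1, Nupl2 and genes whose calls depend on 1 library.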

Additional observations from a re-analysis of the deposited data

How the results depend on the processing

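The median log2 fold change of the tested genes ran from 0.33 on log2(TPM + 1) to 0.81 without HRP2-KO replicate 7, and from 0.50 to 0.81 as replicates were left out. As chosen after seeing the data, the count of genes with groups apart on normalised CPM was also taken without each library. It was 18 to 23 higher, where 18.7% to 29.8% of all tested genes were, and 1 lower. Leaving out each replicate in turn moved the calls from 0 to 17 of these genes, all higher, and from 0 to 3370 of all genes (higher 0 to 1694, lower 0 to 1676); the highest values came without HRP2-KO replicate 7, and 0 of all genes without replicate 44. DESeq2 called 9 of these genes, all higher, and 1553 of all genes (840 higher, 713 lower). Over all genes limma voom called 37 (7 higher, 30 lower), log2(TPM + 1) called 42 (6 higher, 36 lower) and log2(TPM + 0.1) called 27 (2 higher, 25 lower), with 0 of these genes in each. Other factors, filters, the fold minimum of 1.5 and the length offset called 1 gene in all and 0 of these.

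Hdgfl2 passed with DESeq2 (log2 fold change -2.77), limma voom (-2.86), log2(TPM + 1) (-2.95) and log2(TPM + 0.1) (-3.13), and ran from -3.19 to -2.54 as replicates were left out, passing without HRP2-KO replicate 7 (adjusted p = 0.0152). Signs changed in 5 genes near 0. Pom121 was 0.01 with upper-quartile factors (0.0063) and DESeq2 (0.0055), 0.023 with no filter and 0.15 with the length offset, and ran from -0.066 to 0.14 as replicates were left out. Nup98 and Tpr were 0.12 and 0.17 with the length offset. Leaving out replicates, Nup98 ran from -0.25 to 0.21, Tpr from -0.15 to 0.15 and Nup153 from -0.33 to 0.086. Nup160 was -0.042 on log2(TPM + 1) and -0.051 on log2(TPM + 0.1). The cause of these changes was not tested, except that the length offset by construction raises long transcripts in HRP2-KO replicate 44. No paired analysis was possible because the groups share no replicate number. With 3 samples a group, small differences such as that of Nup88 could not be called at this spread. Large ones were not called by the main edgeR test either, such as Hdgfl2 (log2 fold change -2.79, adjusted p = 0.0711) and Lmnb1 (2.49, adjusted p = 0.109).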

Other observations

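The genes of the inner nuclear membrane, of the bridges to the cytoskeleton and of prelamin A processing were read as a list of partners of the lamina. Of 22 tested 15 had a positive log2 fold change, with a median of 0.11, and the groups were apart in 3 higher and 1 lower, shares no larger than the 17% and 14% over all tested genes. DESeq2 called 1 higher and 1 lower, and edgeR without HRP2-KO replicate 7 called 3 higher and 2 lower, against 12.1% and 12% of all genes. Tmpo, whose LAP2 proteins bind lamins and chromatin, stood at 32.2, 58.6 and 52.5 CPM in WT against 131, 57.9 and 112 CPM in HRP2-KO (edgeR log2 fold change 1.07, SE 0.37, adjusted p = 0.187). Banf1, which crosslinks DNA at the end of mitosis, stood at 39.4 to 47.6 CPM against 101, 42.9 and 166 CPM. In both, replicate 7 lay within the WT range. Mad1l1, a spindle checkpoint protein that docks at the pore, was apart at 22.8 to 29.5 against 37.0 to 61.7 CPM (log2 fold change 0.90, SE 0.24, adjusted p = 0.129). Icmt, which methylates the tail of lamins, was the 1 gene of the 22 lower in every knockout library, at 76.2, 70.2 and 65.5 CPM against 40.3, 51.2 and 35.5 CPM (log2 fold change -0.74, SE 0.19, adjusted p = 0.124). Zmpste24, the prelamin A protease, overlapped at 104 to 131 against 77.2 to 132 CPM, and so did the bridge genes Sun1 at 55.0 to 62.6 against 37.4 to 71.6 CPM and Sun2 at 110 to 138 against 108 to 147 CPM. Tmpo, Banf1, Zmpste24, Sun1 and Sun2 were named after their values were seen.

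Prg4, the lubricin gene whose annotated span overlaps that of Tpr, ranged from 13.3 CPM in HRP2-KO replicate 6 to 2189 CPM in replicate 7, while Tpr stood at 247 and 233 CPM in those libraries.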
